A study of Arabidopsis thaliana with 10 samples.

Results

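Leaves of Arabidopsis thaliana whose count tables name them as one of the Ran overexpression lines before darkness were compared, through all genes passing a filter on low counts, with leaves named as the other line before darkness. The members were 4 of the 10 libraries of the study and 21475 of 33028 rows, and 2 Col libraries served as the wild-type level. The first pair carries the column headers Ran-G22V-D0-Set1 and Ran-G22V-D0-Set2, and its samples are labelled RanT27N D0. The second pair carries the headers Ran-T27N-D0-Set1 and Ran-T27N-D0-Set2, and its samples are labelled RanT27N D3. By the headers the comparison is between both lines before darkness, and by the labels it is between day 0 and 3 days of darkness in the RanT27N line. The pairs are called the G22V-header pair (labelled RanT27N D0) and the T27N-header pair (labelled RanT27N D3) from here on. A positive difference means higher in the G22V-header pair.

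Ran is a small GTPase that moves proteins and RNA through nuclear pores. It is bound to GTP mainly in the nucleus and to GDP mainly in the cytoplasm, and importins and exportins load or release their cargo by this difference. The study names RanT27N as a GDP-bound form and RanG22V as a GTP-bound form, both overexpressed in plants of Col-0 background. The sources used here do not give the promoter of the transgenes, the Ran gene used or the number of independent lines. All plants were 4 weeks old and were grown with 16 h of light and 8 h of dark at 22 °C. RNA came from leaves 5 and 6, taken when detached for day 0, or, for the samples labelled D3, after 3 days of detached leaves in darkness. The Col samples are wild type and labelled untreated.

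The 4 libraries compared held 22237249 and 24496672 counts in the G22V-header pair and 17730541 and 20101281 counts in the T27N-header pair. Expression is given as CPM, counts scaled to a common library size. Levels of different genes are not compared. The headers and labels named different samples in 8 of the 10 libraries and the same in the 2 Col libraries. ASN1, an asparagine synthetase known to be induced by darkness, was at 1.11 and 1.1 CPM in the G22V-header pair and at 0.12 and 0.336 CPM in the T27N-header pair, against 1.35 and 0.895 CPM in Col. The libraries with headers Ran-G22V-D3 (labelled RanG22V D0) held 1485 and 840 CPM of it, and those with headers Ran-T27N-D3 (labelled RanG22V D3) held 10.8 and 42.7 CPM. SAG12, a protease gene of late senescence, was at 0.0602 and 0.449 CPM in the T27N-header pair and at 139 to 756 CPM in the 4 libraries with D3 headers. Both genes thus went against the label of 3 days of darkness on the T27N-header pair, and every direction below that is read as a line or a day rests on one or the other naming. Markers of mesophyll (5 of 5 tested), guard cell (5 of 5) and phloem (5 of 5) were present in the 4 libraries compared, the 6 seed markers did not pass the filter, and the summed flower markers stayed between 0 and 0.785 CPM. Phloem markers summed to 485 and 360 CPM in the G22V-header pair, 543 and 632 CPM in the T27N-header pair and 630 and 573 CPM in Col. Their median log2 difference was -0.46, 0 of 5 were called, and their part in the results was not tested. In 3 of the 5 phloem markers the pairs did not overlap with the T27N-header pair higher, against 19% of all genes tested. Root markers leaned the other way, with 5 tested, 0 called, 4 above 0 and a median log2 difference of 0.81. In 2 of these 5 the pairs did not overlap with the G22V-header pair higher, against 21.5% of all genes. The part of root markers in the results was not tested either. The medians of 3 epidermis and 3 trichome markers were -0.08 and -0.37, with 0 called. In these bulk leaves fewer cells of a type and less RNA per cell cannot be told apart.

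RAN1 (AT5G20010), one of the genes that encode Ran, was at 560 and 620 CPM in the G22V-header pair and at 1518 and 1334 CPM in the T27N-header pair. All 4 lay above the Col libraries, at 437 and 256 CPM. The pairs did not overlap, but the log2 difference of -1.27 ± 0.38 (SE) had an adjusted p of 0.289. RAN3 showed the same order, with 46.4 and 50 CPM against 103 and 109 CPM and a log2 difference of -1.14 ± 0.25 (adjusted p = 0.136), and its Col level of 52.1 and 53.9 CPM lay close to the G22V-header pair. Reads from a transgene and from the plant's own RAN gene, or from near-identical RAN copies, cannot be told apart in these counts. No gene of the 24 tested on a list of Ran and nuclear transport was called, and the list's median log2 difference was -0.16. In 10 of the 24 the pairs did not overlap with the T27N-header pair higher, against 19% of all genes tested. In 5 they did not overlap with the G22V-header pair higher, against 21.5% of all genes. Among the carriers, the exportin XPO1B was at 6.75 and 12.4 CPM against 19.8 and 23.4 CPM, with an adjusted p of 0.392. RAN4 did not pass the filter.

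Adjusted p-values are from edgeR's quasi-likelihood test with Benjamini-Hochberg adjustment over the 21475 genes, in a fit of all 10 libraries in their 5 labelled groups, and a gene is called at an adjusted p below 0.05. The labels do not say whether the 2 libraries of a group come from separate plants, so these p-values measure the spread between libraries, which may be technical. By this rule 74 genes (0.345%) differed between the pairs, of which 69 (0.321%) were higher and 5 (0.0233%) were lower in the G22V-header pair. An unadjusted p below 0.05 was reached by 2030 genes (9.45%). In 69 of the 74 genes the fold difference was over 4, and in 26 it was over 16. The pairs did not overlap in any of the 74. Of all genes tested, 21.5% did not overlap with the G22V-header pair higher and 19% with the T27N-header pair higher. The median log2 difference of all genes was 0.00.

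The number of calls depended on which libraries entered the fit. Fits of only the 4 libraries compared, or only the 6 libraries with a D0 header, called 0 genes, and so did the fit without T27N-header library 1 and that without T27N-header library 2. Without G22V-header library 1 or 2 the count was 43 or 35. It was 20 without either library with header Ran-G22V-D3, 32 without either with header Ran-T27N-D3, and 180 or 177 without Col library 1 or 2. All 74 genes were also among the 563 (2.73%) that DESeq2 called on the same counts.

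**Figure D1:**
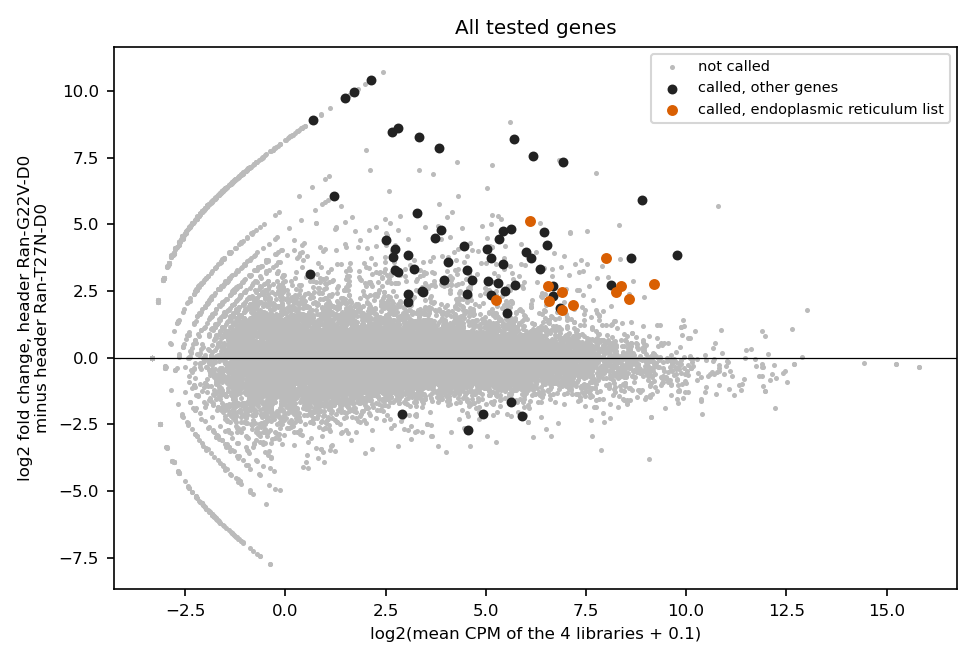
Log2 fold change of every tested gene (vertical axis, G22V-header pair minus T27N-header pair) against its mean level in the 4 libraries (horizontal axis, log2 of CPM plus 0.1). Grey points were not called, black and orange points are the 74 called genes, orange marking the 12 of the endoplasmic reticulum list. 69 of the called genes lie above 0 and 5 below, and the bands of points at low level are genes with few counts.

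Against Col, the G22V-header pair differed in 53 genes (0.247%), 52 of them higher (0.242%) and 1 lower (0.00466%). An unadjusted p below 0.05 was reached by 8.68% of all genes, and DESeq2 called 402 (1.91%). The T27N-header pair differed from Col in 0 genes by the same test, with 867 genes (4.04%) at an unadjusted p below 0.05 and 48 (0.224%) called by DESeq2. The 3 comparisons share libraries. All 69 genes that were higher in the G22V-header pair were above both Col libraries in both of its libraries, and 37 of them were also called higher than Col. None of the 69 was called between the T27N-header pair and Col, where 50 had a fitted level below Col. The 69 were chosen in these libraries as high in one pair and low in the other, which favours both orders against Col. The same counts over all genes were not made. The count of 53 was 0 without Col library 2, 23 without Col library 1 and 21 without G22V-header library 2. It was 21 without either Ran-G22V-D3-header library, 32 without either T27N-header library, and 28 or 27 without Ran-T27N-D3-header library 1 or 2.

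The list with the most calls held genes for protein folding in the endoplasmic reticulum. Secreted and membrane proteins fold in this compartment with the help of BiP chaperones, the lectins calnexin and calreticulin, and protein disulfide isomerases. When unfolded protein builds up there, the sensor IRE1 splices the mRNA of the transcription factor bZIP60, and the membrane-bound factors bZIP28 and bZIP17 are released by cleavage, and these factors raise the chaperone genes. Of 31 tested genes of this list, 12 were called higher in the G22V-header pair and 0 lower, which is 38.7% against 0.345% of all genes. This list and the others were written with earlier results of these data known. Their shares therefore describe the calls and test nothing. The list's median log2 difference was 1.79, and 28 of its 31 genes lay above 0. In 22 the pairs did not overlap with the G22V-header pair higher, against 21.5% of all genes. The same median was 1.79 for the G22V-header pair against Col and -0.00 for the T27N-header pair against Col.

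BIP3, the BiP gene known for its strong induction by unfolded protein, was at 73.3 and 196 CPM in the G22V-header pair, at 2.59 and 5.16 CPM in the T27N-header pair and at 2.15 and 2.07 CPM in Col. Both G22V-header libraries thus stood far above the other 4, although they differed from each other. Its log2 difference was 5.12 ± 0.77, a 34.7-fold higher level (adjusted p = 0.0411), and against Col it was 63.7-fold higher (adjusted p = 0.0299). BIP2 was at 410 and 546 CPM against 38.3 and 32.1 CPM (log2 3.76 ± 0.42, adjusted p = 0.0176). BIP1 was at 546 and 712 CPM against 139 and 131 CPM (log2 2.22 ± 0.35, adjusted p = 0.0435). BIP1 and BIP2 are nearly identical copies and the counting may have split reads between them. Their sum was 956 and 1258 CPM in the G22V-header pair, 177 and 163 CPM in the T27N-header pair and 261 and 154 CPM in Col, so the order of the pairs did not rest on the split.

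The promoters of some called genes hold the endoplasmic reticulum stress element, a sequence to which bZIP factors and the CCAAT-binding complex NF-Y are known to bind. It was searched as CCAAT and CACG with 10 bases between them, on both strands, from 250 bases before to 50 bases after the start of each gene as annotated by RefSeq on the TAIR10.1 assembly. It was found in 6 of the 12 called genes of the list (50%), in 3 of the 19 tested but uncalled genes of the list (15.8%), in 0 of 56 other protein-coding genes called higher, and in 208 of 19581 tested protein-coding genes (1.06%). The shorter core TGACGT, found in promoters bound by many bZIP factors, was in 5 of the 12 (41.7%), in 12 of the 56 (21.4%) and in 9.74% of all 19581. The W box core TTGAC, to which WRKY factors bind, was in 6 of the 12 (50%), in 38 of the 56 (67.9%) and in 51.2% of all. The element with 9 bases between its parts, and TTGAC repeated after 6 bases, were found in 0 of the 68 promoters of genes called higher and in 0.148% and 0.158% of all. The repeat contains TTGAC, and matches of the other motifs may share bases. A match is a description of these letters and not of binding.

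Shown here are the 250 bases before the start of 3 called genes in which the element lies at different places, written 5′ to 3′ on the strand of the gene, with the element in capitals. They are from RefSeq's TAIR10.1 genome, BIP3 at chr1:2931851-2932100 on the minus strand, CRT1A at chr1:21092710-21092959 on the minus strand and PDIL1-2 at chr1:29126398-29126647 on the plus strand. BIP3 holds the element at 174 and at 96 bases before the start, CRT1A at 68 and PDIL1-2 at 64, each counted to the element's first base as printed. In BIP3 and CRT1A it reads on the opposite strand.
BIP3: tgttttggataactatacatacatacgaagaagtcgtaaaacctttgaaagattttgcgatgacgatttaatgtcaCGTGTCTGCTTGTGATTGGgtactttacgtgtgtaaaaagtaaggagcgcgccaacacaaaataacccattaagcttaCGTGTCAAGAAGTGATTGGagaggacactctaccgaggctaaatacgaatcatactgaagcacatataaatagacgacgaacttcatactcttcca
CRT1A: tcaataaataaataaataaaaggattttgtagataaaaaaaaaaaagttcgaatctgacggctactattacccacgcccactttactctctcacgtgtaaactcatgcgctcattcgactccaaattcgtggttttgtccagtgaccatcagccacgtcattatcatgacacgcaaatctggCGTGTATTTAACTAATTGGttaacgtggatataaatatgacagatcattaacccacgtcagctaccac
PDIL1-2: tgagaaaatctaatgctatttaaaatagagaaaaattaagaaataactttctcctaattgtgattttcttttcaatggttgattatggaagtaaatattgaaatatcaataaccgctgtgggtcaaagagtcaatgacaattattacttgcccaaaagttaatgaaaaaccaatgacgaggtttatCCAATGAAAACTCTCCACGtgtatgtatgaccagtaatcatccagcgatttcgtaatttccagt

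The lectin chaperones hold newly made glycoproteins until they have folded. CNX1, a calnexin, was at 435 and 704 CPM in the G22V-header pair and at 90.5 and 87 CPM in the T27N-header pair, a log2 difference of 2.68 ± 0.40 (adjusted p = 0.0411). CRT3, the calreticulin known to be needed for the immune receptor EFR, was at 1234 and 820 CPM against 162 and 137 CPM (log2 2.78 ± 0.41, adjusted p = 0.0372). CRT1A was at 199 and 264 CPM against 54.5 and 62 CPM, close to the Col level of 55.6 and 61.2 CPM. The copy CRT1B had a similar difference of 1.99 ± 0.43 but was not called (adjusted p = 0.118), and it was given here after its values were seen.

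Of the disulfide isomerases, which form and rearrange disulfide bonds, 3 were called. PDIL1-2 was at 148 and 180 CPM against 18.6 and 31.6 CPM (6.52-fold, adjusted p = 0.0435), PDIL1-1 was 4.4-fold higher (adjusted p = 0.0343) and PDIL2-1 was 3.46-fold higher (adjusted p = 0.0351). PDIL2-1 overlaps the called gene AT2G47480, of unknown function, by 97 bases on the opposite strand. AT2G47480 was at 60.3 and 78.3 CPM against 12.2 and 7.68 CPM, was named after its values were seen, and cannot be told apart from PDIL2-1 in the overlap, as the strand setting of the counting is unknown. The overlap lies at the 3′ ends of both genes. How many reads of either gene fall in it was not measured, so both calls carry this limit. Another chaperone and partners of BiP moved in the same direction. SHD, the HSP90 of the endoplasmic reticulum, was at 458 and 578 CPM against 92 and 94.9 CPM (log2 2.47 ± 0.33, adjusted p = 0.0343). ERDJ3B and SDF2, which form a complex with BiP, were 5.47-fold and 4.43-fold higher (adjusted p = 0.0343 and 0.0351).

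The factors that control these genes were not called. BZIP60 was at 789 and 351 CPM in the G22V-header pair and at 605 and 494 CPM in the T27N-header pair, with a log2 difference of 0.05 ± 0.41 (adjusted p = 0.991). Its G22V-header libraries lay on both sides of the other pair. BZIP28 differed by 0.26 ± 0.36 (adjusted p = 0.882), BZIP17 by 0.63 ± 0.30 (adjusted p = 0.564) and the sensor gene IRE1A by -0.09 ± 0.39 (adjusted p = 0.977). These 4 were named after their values were seen. Counts per gene hold no measure of the splicing of bZIP60 mRNA or of cleavage of bZIP28. Outside the list, the called gene AT5G50460 encodes a subunit of the Sec61 channel, through which new proteins enter the endoplasmic reticulum. It was at 178 and 187 CPM against 54.7 and 44.4 CPM (3.68-fold, adjusted p = 0.0435).

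**Figure D2:**
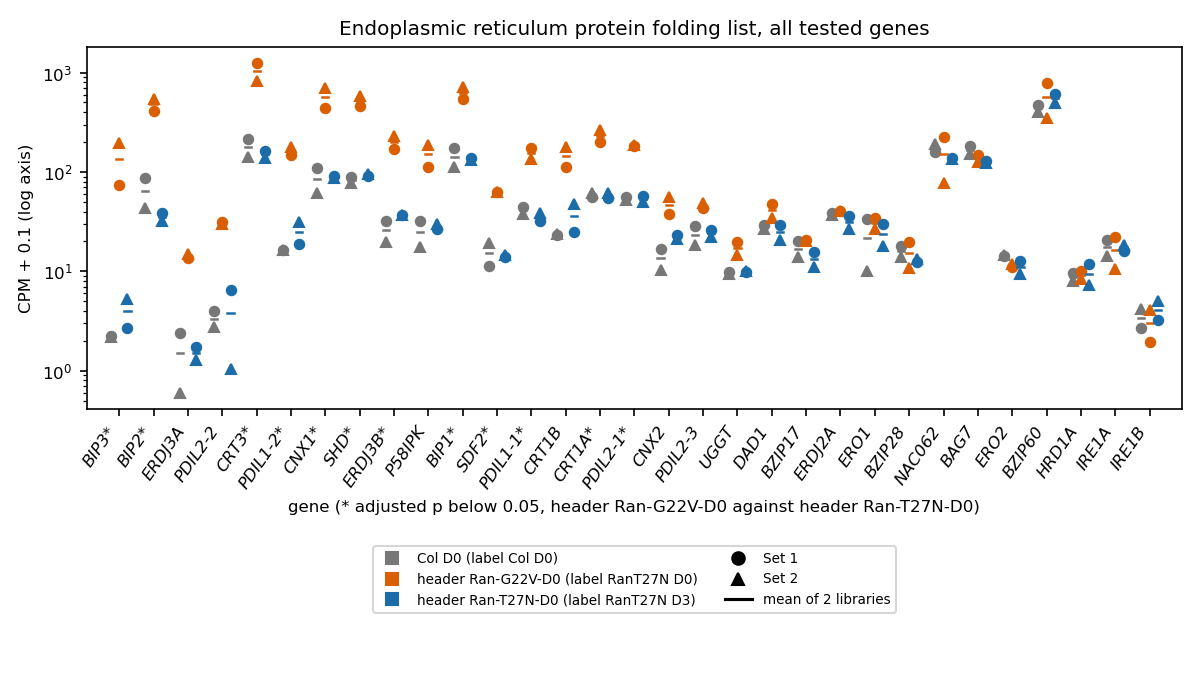
CPM plus 0.1 (log axis) of the 31 tested genes of the endoplasmic reticulum protein folding list in the 6 libraries with a D0 header. Circles are Set 1, triangles are Set 2, short lines are means of 2 libraries, and genes are ordered by their log2 fold change. The orange G22V-header libraries stand above the blue T27N-header and grey Col libraries for the chaperones on the left, while BZIP60, NAC062 and IRE1A on the right have the colours mixed.

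The count of 12 was 11 to 16 under another size factor, other filters, no ribosomal RNA rows and DESeq2. It was 0 with only the 4 or the 6 D0-header libraries and 0 without either T27N-header library. Without G22V-header library 1 or 2 it was 6 or 3. It was 1 without either library with header Ran-G22V-D3 and 4 without either with header Ran-T27N-D3. The heat shock genes of the cytosol gave a different picture. None of 14 tested was called, and their median log2 difference was 1.67. In 9 of the 14, G22V-header library 2 was over 4 times as high as library 1, which held for 6.1% of all genes tested. In the T27N-header pair that was so in 0 of the 14, and in 5 library 1 was over 4 times as high as library 2 (6.02% of all genes). HSP90.1 was at 39.5 and 510 CPM in the G22V-header pair and at 24.9 and 23 CPM in the T27N-header pair (adjusted p = 0.446), and Col ranged from 17.2 to 254 CPM. Of the 12 called endoplasmic reticulum genes, 9 were higher in library 2 as well. Whether the heat shock genes of library 2 bear on those genes was not tested.

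Genes of salicylic acid defence formed the next group. Salicylic acid is made through isochorismate, which ICS1 produces in chloroplasts and PBS3 processes further in the cytosol, and it acts through NPR receptors on PR genes. N-hydroxypipecolic acid, made by ALD1, SARD4 and FMO1, is the signal of systemic acquired resistance. On the list of both pathways 3 of 27 tested genes were called, all higher in the G22V-header pair (11.1% against 0.345% of all genes). The list's median log2 difference was 1.18. In 16 genes the pairs did not overlap with the G22V-header pair higher, against 21.5% of all genes.

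FMO1, the enzyme of the last step of N-hydroxypipecolic acid synthesis, was at 23.8 and 16.1 CPM in the G22V-header pair and had 0.12 and 0 CPM in the T27N-header pair, 923 counts against 2. The ratio was 339 with an exact 95% counting interval of 93.6 to 2803, which covers counting error only (adjusted p = 0.0435). SARD4, which acts before FMO1, was at 57 and 60.7 CPM against 9.14 and 6.73 CPM (log2 2.89 ± 0.46, adjusted p = 0.0435). The third was DLO1, a hydroxylase that breaks down salicylic acid, at 122 and 361 CPM against 1.2 and 1.74 CPM (log2 7.35 ± 0.86, adjusted p = 0.0191). It was 79.2-fold above Col (adjusted p = 0.024), while FMO1 and SARD4 were not called against Col (adjusted p = 0.0975 and 0.14).

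The synthesis genes ICS1 and PBS3 were not called. ICS1 was at 296 and 94.6 CPM against 13.7 and 12.1 CPM. Its log2 difference of 3.93 ± 1.04 had an adjusted p of 0.217. PBS3 was at 242 and 77.1 CPM against 4.39 and 5.21 CPM (adjusted p = 0.0936). Both genes were higher in library 1 than in library 2. The Col libraries differed too, at 41.9 and 10.1 CPM for ICS1. The receptor gene NPR1, given after its values were seen, had 43.1 and 31.3 CPM against 27.5 and 27.5 CPM (adjusted p = 0.741).

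Of 19 tested defence outputs, 3 were called higher and 0 lower (15.8% against 0.345% of all genes). AIG1, a gene known for its induction by a bacterial effector, had the smallest adjusted p of the comparison together with CAX3. It was at 97.6 and 192 CPM in the G22V-header pair, at 0.602 and 0.897 CPM in the T27N-header pair and at 1.65 and 1.85 CPM in Col (log2 7.58 ± 0.62, 191-fold, adjusted p = 0.00521). PR5, a thaumatin-like protein, was at 1425 and 440 CPM against 19.3 and 11.3 CPM (61.1-fold, adjusted p = 0.0424). AED1, an aspartyl protease of the apoplast, was at 890 and 568 CPM against 43.7 and 66.3 CPM (13.2-fold, adjusted p = 0.0435).

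The other PR genes of salicylic acid did not pass. PR1 reached 668 and 189 CPM in the G22V-header pair, against 1.56 and 5.44 CPM in the other, with a log2 difference of 6.93 ± 1.34 and an adjusted p of 0.0809. PR2, a glucanase, was at 4246 and 2671 CPM against 74.9 and 57.9 CPM (log2 5.70 ± 0.99, adjusted p = 0.054). The pairs did not overlap for either. The 2 libraries of Col spanned 1.4 to 16.7 CPM for PR1 and 30.1 to 175 CPM for PR2. The 3 calls of each list became 10 and 7 under DESeq2 and 10 and 8 without the filter, and 0 and 0 without either T27N-header library.

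**Figure D3:**
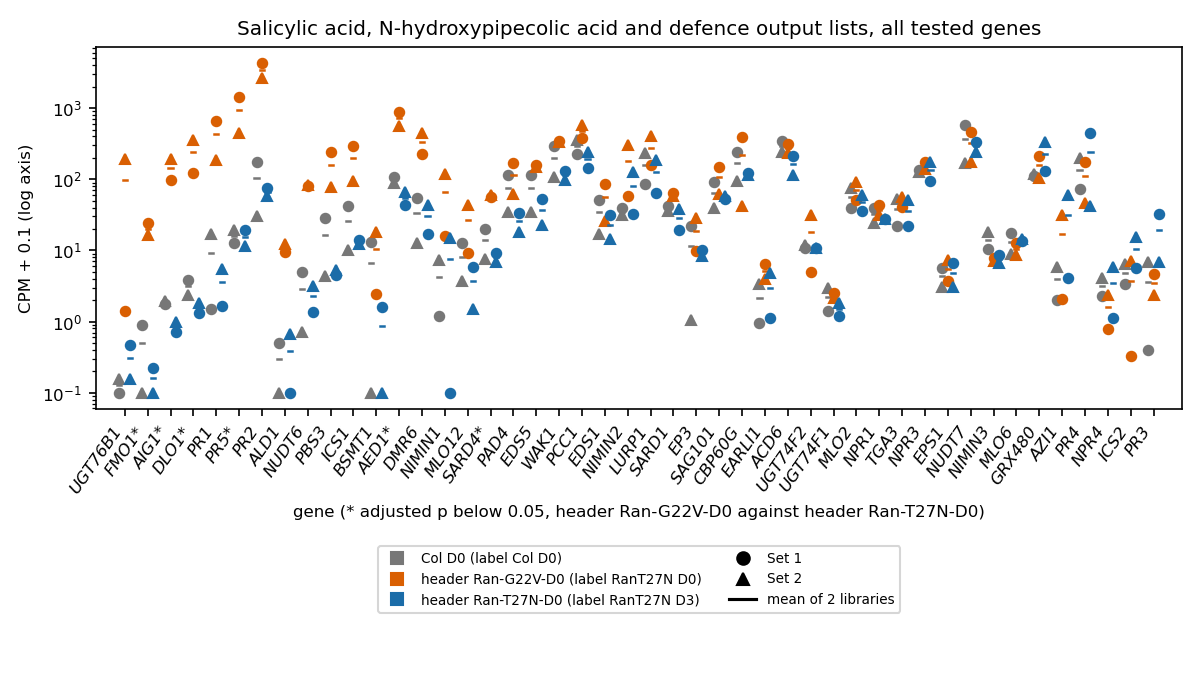
CPM plus 0.1 (log axis) of all tested genes of the salicylic acid, N-hydroxypipecolic acid and defence output lists in the 6 libraries with a D0 header, ordered by log2 fold change. Circles are Set 1, triangles are Set 2 and short lines are means of 2 libraries. PR1, PR5, PR2 and AIG1 are high in both orange G22V-header libraries, while UGT76B1, a glucosyltransferase of N-hydroxypipecolic acid named after its values were seen, is high in 1 of them, at 192 CPM against 1.29 CPM.

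The lists of cysteine-rich receptor kinases, WRKY factors and pattern and resistance receptors together gave 1 call. Of 27 tested receptor kinases of the first list (CRK) 0 were called, with a median log2 difference of 1.16. In 16 of them the pairs did not overlap with the G22V-header pair higher, against 21.5% of all genes. CRK37 came nearest to a call, at 92.9 and 43.2 CPM against 1.38 and 2.8 CPM (log2 5.01 ± 0.91, adjusted p = 0.063). Of 32 WRKY genes 1 was called (3.12% against 0.345% of all genes). This was WRKY75, a factor known to promote senescence, at 12.7 and 20.5 CPM against 1.74 and 1.51 CPM (log2 3.34 ± 0.55, adjusted p = 0.0469). WRKY50 and WRKY60 missed the threshold (adjusted p = 0.0518 and 0.0542). Of 22 pattern and resistance receptors 0 were called, with a median of 0.51, although RLP23, a receptor of microbial peptides, was at 627 and 247 CPM against 56.6 and 23.9 CPM (adjusted p = 0.172).

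Camalexin and indole glucosinolates are both made from tryptophan. The pathway gave a call in each direction among 18 tested genes (11.1% against 0.345% of all genes). Its median log2 difference was -0.34, and 6 of the 18 genes lay above 0. In 9 of them the pairs did not overlap with the T27N-header pair higher, against 19% of all genes. In 4 they did not overlap with the G22V-header pair higher, against 21.5% of all genes. PAD3, the last enzyme of camalexin synthesis, was at 53.2 and 97.6 CPM in the G22V-header pair and at 16.7 and 10.1 CPM in the T27N-header pair (5.62-fold, adjusted p = 0.0473). CYP81F2, which hydroxylates indole glucosinolates for defence, was at 14.5 and 8.76 CPM against 42.9 and 55.7 CPM (4.25-fold lower, adjusted p = 0.0473). CYP71A13, which makes the camalexin precursor, was at 22.5 and 147 CPM against 5.47 and 3.87 CPM but was not called (adjusted p = 0.136). Of 20 aliphatic glucosinolate genes 0 were called and the median was -0.63. In 12 of them the pairs did not overlap with the T27N-header pair higher, against 19% of all genes.

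Transporters and enzymes that modify small molecules were among the remaining calls. CAX3, a vacuolar exchanger of calcium and protons, was at 195 and 145 CPM against 4.87 and 8.02 CPM (log2 4.72 ± 0.39, 26.4-fold, adjusted p = 0.00521). PCR1, a cadmium resistance protein of the plasma membrane, was at 1500 and 1756 CPM against 128 and 94.8 CPM (14.6-fold, adjusted p = 0.0234). The Col libraries were in between, at 256 and 227 CPM. The glycosyltransferase UGT85A1, which acts on cytokinins, was at 183 and 166 CPM against 11.1 and 7.68 CPM (adjusted p = 0.0355), and UGT87A2 was 6.39-fold higher (adjusted p = 0.0473). SOT12, a sulfotransferase that can modify salicylic acid, was at 192 and 150 CPM against 29 and 39.9 CPM (4.96-fold, adjusted p = 0.0351). Among 16 glutathione transferase and MATE transporter genes, which serve detoxification, 0 were called, with a median of 1.31. In 11 of them the pairs did not overlap with the G22V-header pair higher, against 21.5% of all genes.

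Genes of leaf senescence gave 3 calls among 25 tested (12% against 0.345% of all genes). All were higher in the G22V-header pair, beside a list median of 0.20. SAG13, a dehydrogenase gene that comes on early in senescence and in defence, was at 105 and 78.8 CPM against 15.6 and 11.9 CPM (log2 2.74 ± 0.39, adjusted p = 0.0351). NAC087, a NAC factor, was at 12.8 and 12 CPM against 1.32 and 1.35 CPM (log2 3.21 ± 0.34, adjusted p = 0.0176). The third was WRKY75. SAG12 was at 0.139 and 1.22 CPM against 0.0602 and 0.449 CPM, so that 1 library of each pair was at or under the floor of 3 counts, which is 0.118 to 0.18 CPM in these libraries. On the list of darkness and carbon starvation 0 of 23 genes were called and the median was -0.12.

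Some calls were of genes close to silent in the T27N-header pair. UGT73D1, a glycosyltransferase, had 13 and 4.06 CPM in the G22V-header pair and no count in the T27N-header pair, so it was at least 48.9-fold higher, taking 3 counts per library as the floor (adjusted p = 0.0435). KOR2, an endoglucanase of the cell wall, was at least 36.3-fold higher (adjusted p = 0.0435). AT5G27980, annotated as a seed maturation protein, was at least 31.2-fold higher (adjusted p = 0.0411) and the precursor of the microRNA MIR5631 at least 17.3-fold higher (adjusted p = 0.0411). Of these, AT5G27980 had no count in Col either, while MIR5631 was at 1.6 and 1.34 CPM in Col, near the 4.07 and 1.97 CPM of the G22V-header pair. AT1G51860, a leucine-rich repeat receptor kinase, had 596 counts against 1, a ratio of 438 with an exact 95% counting interval of 78.3 to 17318 (adjusted p = 0.0176). AT5G55150, an F-box protein of the DUF295 family, was at 127 and 80.6 CPM against 0.0602 and 0.617 CPM (adjusted p = 0.013). It lies 7 bases from the called gene AT5G55140 on the opposite strand, which was named after its values were seen, at 70.1 and 47.2 CPM against 8.24 and 14.6 CPM, and reads that run past an end cannot be told apart.

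Further calls were of receptors and proteins of defence outside the lists, given here after their values were seen. CHI (AT2G43570), a chitinase, was at 101 and 64.8 CPM in the G22V-header pair, at 1.56 and 4.54 CPM in the T27N-header pair and at 1.8 and 1.51 CPM in Col (27.1-fold, adjusted p = 0.0234). PNP-A, a secreted peptide related to natriuretic peptides, was at 129 and 63.4 CPM against 2.77 and 4.04 CPM (28.2-fold, adjusted p = 0.0351). Both were also called against Col (adjusted p = 0.0129 and 0.0299). The receptor-like protein RLP7 was at 12.2 and 12.6 CPM against 1.08 and 0.393 CPM (adjusted p = 0.0343), and AT1G51890, a leucine-rich repeat kinase, at 23.1 and 27.3 CPM against 0.541 and 1.68 CPM (adjusted p = 0.0351). As in every called gene, the pairs did not overlap in these 4 genes.

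Several carriers and sugar nucleotide genes followed the same order and were likewise chosen after their values were seen. UTR1, a carrier of UDP-sugars into the endoplasmic reticulum, was at 27.9 and 33.7 CPM against 2.11 and 2.97 CPM (12.1-fold, adjusted p = 0.0424). GlcNAc1pUT2, an enzyme that makes UDP-N-acetylglucosamine, was at 79.8 and 61.8 CPM in the G22V-header pair, 3.23-fold higher (adjusted p = 0.0435). PTR3, a peptide transporter, was at 65.6 and 63.8 CPM against 3.31 and 6.34 CPM (13.4-fold, adjusted p = 0.0351). Col was near the T27N-header pair for the first pair of genes, and at 10 and 12.7 CPM for PTR3 it lay between.

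The calls with the largest change, smallest adjusted p or highest level held 9 more genes. SDR4, of the short-chain dehydrogenase family, was at 12.5 and 43.6 CPM against 0 and 0.224 CPM (adjusted p = 0.0435). AT2G44240, of the DUF239 family, had 638 counts against 1, a ratio of 469 with an exact 95% counting interval of 83.8 to 18536 (adjusted p = 0.0436). AT1G13520, of the DUF1262 family, was at 22.5 and 15.5 CPM against 0.18 and 0.673 CPM (43.4-fold, adjusted p = 0.0176). In both T27N-header libraries each of these was below 1 CPM. AATP1, an AAA-ATPase, was 21.2-fold higher (adjusted p = 0.0176) and AT3G46080, a zinc finger protein, 22-fold higher (adjusted p = 0.0191). The abundant ones were AT3G28540, a nucleoside triphosphate hydrolase at 324 and 641 CPM against 55.8 and 89.6 CPM (adjusted p = 0.0473), AT3G22600, a lipid transfer protein (15.6-fold, adjusted p = 0.0435), AT2G41730 (13.5-fold, adjusted p = 0.0294) and AT4G12735, of unknown function (10-fold, adjusted p = 0.0351).

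The level in Col differed among the remaining calls. GPAT1, a glycerol-3-phosphate acyltransferase, was at 2.17 and 3 CPM against 0.301 and 0.28 CPM (8.75-fold, adjusted p = 0.0456), with Col at 2 and 0.895 CPM. VSR7, a vacuolar sorting receptor, was at 21.5 and 14.1 CPM against 3.25 and 3.08 CPM (5.61-fold, adjusted p = 0.0351), with Col between the pairs at 8.43 and 8.28 CPM. Neither was called between the G22V-header pair and Col (adjusted p = 0.621 and 0.356). AT2G18193, an ATPase-like protein, was the opposite case, at 61.2 and 62.6 CPM against 1.68 and 5.61 CPM and 128-fold above Col (adjusted p = 0.0125). These 3 were also chosen after their values were seen.

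The 5 genes that were lower in the G22V-header pair were higher in the T27N-header pair than in both Col libraries. AT5G47590, of the small heat shock protein family, was at 4.9 and 7.54 CPM in the G22V-header pair, at 47.1 and 33.6 CPM in the T27N-header pair and at 5.94 and 4.42 CPM in Col (log2 -2.70 ± 0.34, adjusted p = 0.0263). AT5G16250, of unknown function, was at 16.5 and 26.1 CPM against 94.7 and 100 CPM (log2 -2.19 ± 0.36, adjusted p = 0.0473). SQE6, a squalene monooxygenase of sterol synthesis, was at 2.13 and 3.43 CPM against 12.8 and 11.3 CPM (log2 -2.11 ± 0.31, adjusted p = 0.0351). AT5G56590, a glycosyl hydrolase of family 17, was at 21.6 and 25.7 CPM against 75.4 and 74.2 CPM (log2 -1.66 ± 0.27, adjusted p = 0.0435). CYP81F2, given above, was the fifth. None of the 5 was called against Col in either pair. Their choice as high in the T27N-header pair favours a level there above Col.

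The called genes differed in their level in the other pair that carries a G22V header, Ran-G22V-D3 (labelled RanG22V D0). All 12 endoplasmic reticulum genes were lower in both of its libraries than in both Ran-G22V-D0-header libraries. BIP3 was at 20.3 and 14 CPM there and CNX1 at 70.6 and 74.6 CPM. Of the other 57 genes called higher, 19 were lower in that pair and 21 were higher, among them SAG13 at 427 and 820 CPM, NAC087 at 99.8 and 88.7 CPM and CAX3 at 251 and 325 CPM. In 50 of these 57 genes, and in 5 of the 12, both Ran-G22V-D3-header libraries were above both libraries of the T27N-header pair. The genes were chosen as high in the G22V-header pair and low in the T27N-header pair. That choice favours a level in another pair below the first and above the second. The same counts over all genes were not made. These counts describe the calls and were not tested.

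**Figure D4:**
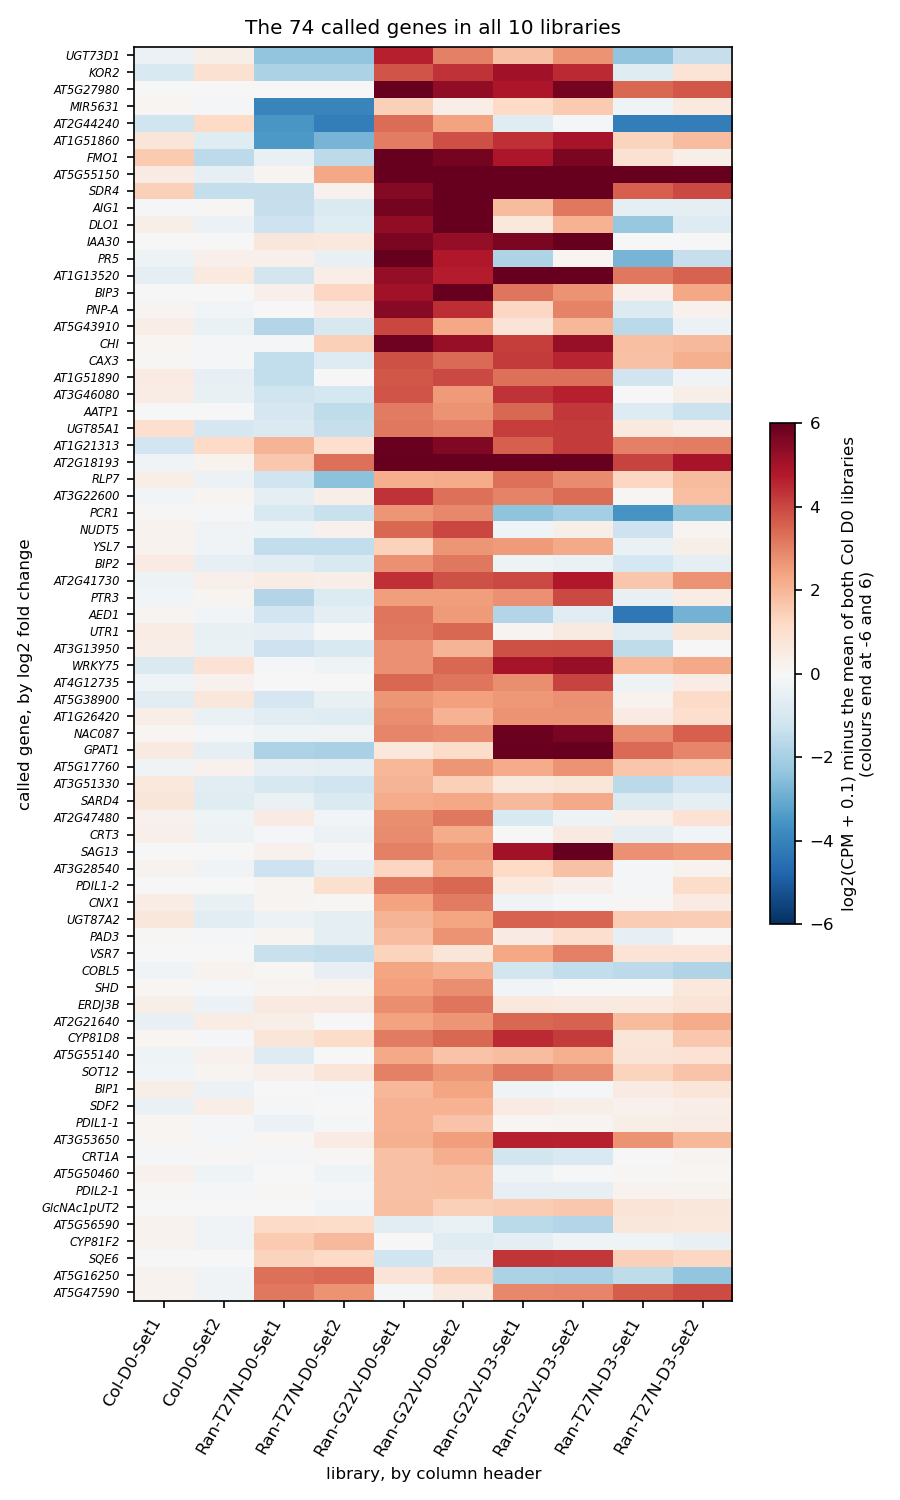
Level of the 74 called genes (rows, ordered by log2 fold change between the pairs) in all 10 libraries (columns, by header), as log2 of CPM plus 0.1 minus the mean of both Col libraries. Red is above Col and blue below, with colours ending at -6 and 6. The 69 genes above the last 5 rows are above Col in both Ran-G22V-D0 columns, though MIR5631 and GPAT1 are close to it. The chaperone genes in the lower part of the map are pale in the D3 columns.

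Lists of other hormones gave no call, and the medians of jasmonate and abscisic acid lay below 0. Jasmonate is a defence hormone that often opposes salicylic acid, and 0 of 33 tested genes of its synthesis and response were called. Their median log2 difference was -1.03, and 7 lay above 0. In 16 of the jasmonate genes the pairs did not overlap with the T27N-header pair higher, against 19% of all genes. JAZ6, a repressor induced by the hormone, was at 107 and 81.8 CPM against 287 and 385 CPM (adjusted p = 0.318), and its Col libraries, at 330 and 77.7 CPM, overlapped both pairs. Of 33 genes of abscisic acid, cold and dehydration 0 were called with a median of -0.77. ERD10, a dehydrin, was at 783 and 1155 CPM against 1604 and 3296 CPM (adjusted p = 0.409). Of 20 ethylene genes 0 were called with a median of -0.01, and of 17 flavonoid genes 0 were called with a median of 0.57.

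None of 42 genes of light harvesting and photosystems (median -0.53), 21 of the Calvin cycle (median -0.14) or 33 of the clock (median 0.02) was called. LHCB1.1, a light-harvesting protein, was at 76 and 2763 CPM in the G22V-header pair, at 102 and 964 CPM in the T27N-header pair and at 21.3 and 963 CPM in Col, with Set 1 low in every case. In 11 of the 42 photosystem genes, 8 of the 33 clock genes and 0 of the 21 Calvin cycle genes Set 2 was over 4 times Set 1 in all 3 of these groups, which held for 0.764% of all genes tested. The clock gene LUX was at 5.13 and 15.3 CPM against 16.7 and 36.4 CPM (adjusted p = 0.595). Among the 69 genes called higher, 33 were higher in Set 2 and 36 in Set 1 of the G22V-header pair.

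**Figure D5:**
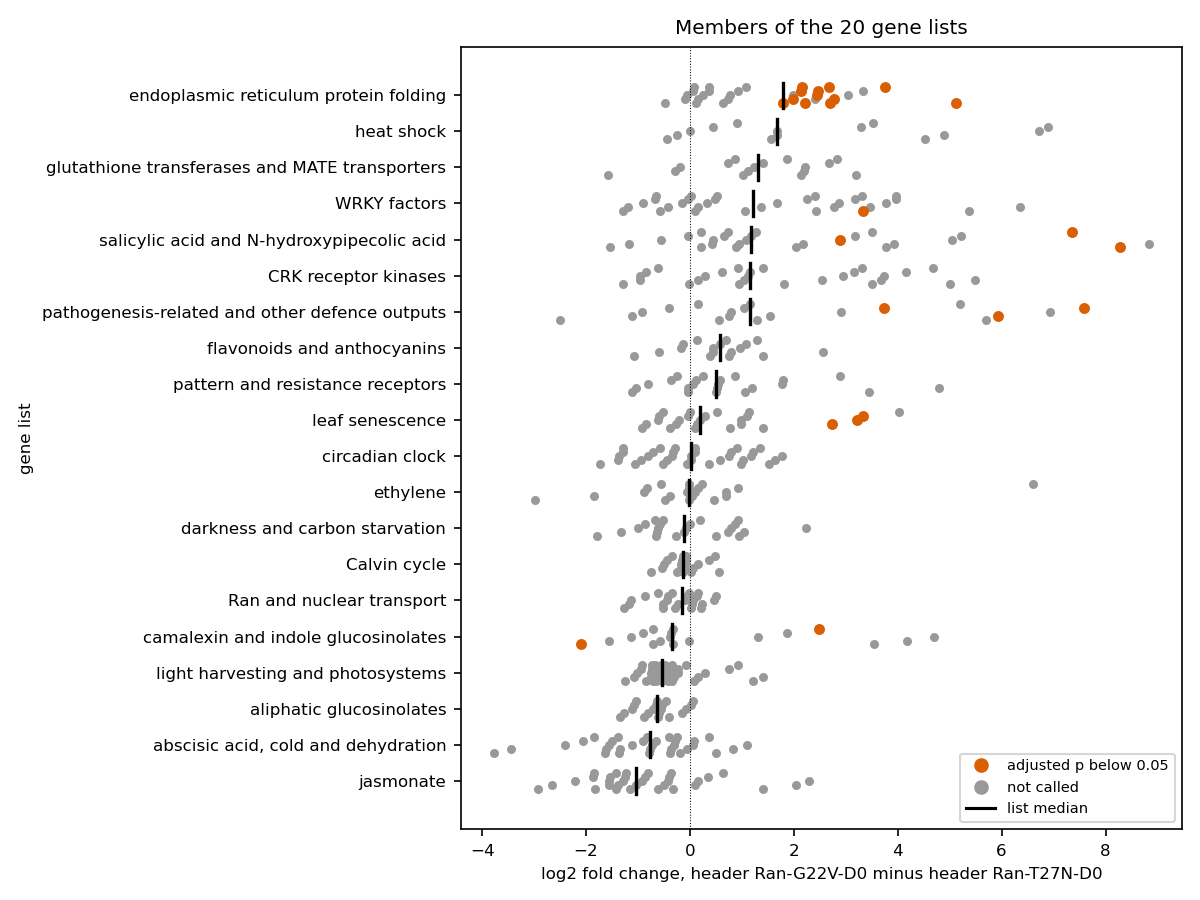
Log2 fold change (horizontal axis, G22V-header pair minus T27N-header pair) of each tested gene of the 20 lists (rows, ordered by median). Orange points were called at an adjusted p below 0.05, grey points were not, and the black bar is the list median. The medians run from -1.03 for jasmonate to 1.79 for endoplasmic reticulum protein folding, which holds 12 of the orange points.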

How the data were processed

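RNA from Arabidopsis leaves was made into libraries with a Lexogen QuantSeq kit, per the labels' protocols. The authors deposited whole-number raw read counts per gene, 1 table per library, and the submitters' processing notes name Bowtie2, edgeR and TAIR10. The sources used here do not give the counting program or its strand setting. Rows were paired with loci through RefSeq's TAIR10.1 gene table (32557 of 33028 rows, 98.57%, with 429 rows sharing a name). Ribosomal RNA rows held 17.8% to 21.86% of the counts in the 4 libraries compared.

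Groups follow the sample titles, with 2 libraries in each of 5 groups. Rows passing filterByExpr (21475) were scaled by TMM and tested with edgeR 4.0.16 in R 4.3.3 (quasi-likelihood test, 1 mean per group, all 10 libraries, biological coefficient of variation 45%), after the scripts were tested on simulated data. SE is the log2 fold change divided by the square root of F. The 2 libraries of a group differed beyond counting noise (chi-square per gene 32.04 to 236.2). CPM values use the TMM scaling. DESeq2 1.42.0, another size factor, other filters, other libraries and a replicate term were alternatives.

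Members and gene lists were chosen with earlier results of these data known. Genes were taken for description from all called in the rarer direction, called list members, the 25 called with the highest CPM, the 10 with the largest change, the 10 with the smallest adjusted p, up to 4 leading members per list, and Ran genes and level checks. Not all list members so taken are described, and genes from outside are marked as chosen after their values were seen. Setting genes without counts to their bound left the medians of the 20 lists as given.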

Additional observations from a re-analysis of the deposited data

How the results depend on the processing

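For the comparison of the G22V-header with the T27N-header pair, where 74 genes were called, no filter gave 563 calls (471 higher, 92 lower), DESeq2 563 (439 higher, 124 lower), another size factor 72, the stricter filter 52 and leaving out ribosomal RNA 76. With only the 4 or only the 6 D0-header libraries the count was 0. Leaving out 1 library gave 0 to 180 calls, with 0 without either T27N-header library and 177 or 180 without a Col library. For the G22V-header pair against Col (53 calls) the counts were 391 with no filter, 34 with the stricter filter, 402 with DESeq2 and 0 with only the 4 or 6 D0-header libraries, and leaving out 1 library gave 0 to 46. For the T27N-header pair against Col (0 calls) they were 24 with no filter and 48 with DESeq2, and 0 to 1 when 1 library was left out. Whether 1 library or the number of libraries sets these counts was not tested.

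Replicate numbers are shared by the groups, but neither label nor header says that a number marks a shared batch. The differences between replicates 1 and 2 correlated across genes at 0.188 between both pairs, 0.124 between Col and the G22V-header pair and 0.31 between Col and the T27N-header pair. With a replicate block the main count was 72 in all 10 libraries (60 of the 74 among them), 44 in the 6 D0-header libraries (26 among them) and 112 in the 4 compared (42 among them). Against Col the block gave 27 in 6 libraries and 89 in 4 for the G22V-header pair, and 39 in 4 for the T27N-header pair.

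Counts of called list members, added after seeing the data, ranged over 1 library left out from 0 to 14 for endoplasmic reticulum folding, and from 0 to 5 for both the salicylic acid and the defence output list. With the block they were 13, 3 and 6 in 10, 6 and 4 libraries for the first, 3, 1 and 6 for the second and 3, 4 and 5 for the third, and with the stricter filter 11, 1 and 1. A library left alone in its pair is assumed to vary like the others. Over 1 library left out, the log2 differences of 6 named genes changed sign, ranging from -0.55 to 4.78 (AT2G29500), -0.59 to 2.88 (CCA1), -2.81 to 3.75 (LHCB1.1), -0.87 to 3.36 (SAG12), -1.76 to 0.21 (PSBY) and -0.32 to 0.78 (RBCS1A, also -0.20 without G22V-header library 1). The first 4 changed sign without G22V-header library 2, the last pair without T27N-header library 2. None was called. The cause was not tested.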
